A study of Mus musculus with 6 samples.

Results

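NADPH is the reduced cofactor that cells spend on glutathione and thioredoxin recycling and on the synthesis of lipids and proline. Cytosol and mitochondria each make their own pool. In the cytosol the oxidative branch of the pentose phosphate pathway, malic enzyme and isocitrate dehydrogenase reduce NADP. In the mitochondrial matrix, paralogous malic enzymes and isocitrate dehydrogenase do the same, and nicotinamide nucleotide transhydrogenase (Nnt) in the inner membrane uses the proton gradient to pass hydride from NADH to NADP. The 10 genes described here are the mitochondrial enzymes Nnt, Idh2, Me2 and Me3, the cytosolic enzymes Me1, Idh1, G6pdx and Pgd, and the non-oxidative pentose phosphate enzymes Tkt and Taldo1. The last pair make no NADPH themselves but return pentose phosphates to glycolytic sugars. They were taken by gene symbol from a table of 25220 genes, and all 10 were found.

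Poly(A) RNA was sequenced from primary myoblasts of mouse hindlimb muscle, grown in Ham's F-10 medium with added horse serum and bFGF, a fibroblast growth factor. There were 3 Psat1 cKO libraries, from cells with a Cre allele at Pax7 and floxed Psat1 (Pax7 CRE+/-;Psat1fl/fl), and 3 Ctrl libraries, from cells with floxed Psat1 and no Cre (Pax7 +/+; Psat1fl/fl). Both groups thus carried floxed Psat1, the aminotransferase of serine synthesis, and Psat1 cKO alone carried Cre, driven from the gene of a satellite cell transcription factor. The labels used here give no strain or substrain, no age, no induction of Cre, and no statement on whether replicates came from separate animals, so that p-values measure the spread between these samples. In both groups some libraries carried Xist and others a Y-linked transcript, so at least 2 animals stand behind each group. Values are RPKM, reads scaled to the length of the transcript and the size of the library, as the authors deposited them. A log2 fold change is Psat1 cKO over Ctrl on log2(RPKM + 0.5), and a gene is called higher or lower where limma's Benjamini-Hochberg adjusted p, over the 12251 genes that averaged 0.5 RPKM or more, was under 0.05.

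Psat1 (chr19:15905123-15925059 on GRCm38) stood at 63.5, 74.7 and 71.8 RPKM in Psat1 cKO 1 to 3, against 91.8, 93.4 and 100.2 RPKM in Ctrl 1 to 3 (log2 fold change -0.44, SE 0.07, limma adjusted p = 0.0225), and leaving out any 1 library other than Psat1 cKO 1 took that p to between 0.0517 and 0.0834. With the Xist and Y-linked split described next as a covariate it was 0.0532. The depth read from the steps between low RPKM values was 19500000 to 35100000 reads in Psat1 cKO, with Psat1 cKO 3 the shallowest, and 33500000 to 43100000 reads in Ctrl. Xist was read in Psat1 cKO 1, Psat1 cKO 2 and Ctrl 1, and the Y-linked Ddx3y in Psat1 cKO 3, Ctrl 2 and Ctrl 3. Myoblast markers were strongly read in every library, with Myod1 between 572 and 780 RPKM. The summed level of the 8 listed myoblast markers was 1261 to 1447 RPKM in Psat1 cKO, against 1524 to 1709 RPKM in Ctrl. All 7 that could be tested had negative log2 fold changes. Of these 2, Pax7 and Myf5, were called lower, against 0.490% of all genes tested. Chrna1 was also lower without overlap but was not called. Psat1 cKO carries its Cre allele at Pax7, so for Pax7 the allele and the content of myoblasts cannot be told apart.

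The members were chosen by their role and with their RPKM differences between Psat1 cKO and Ctrl known, so these differences are described and no p is given for them. All 10 passed the filter on low values, and 3 were called: Me1 and Tkt higher and Nnt lower in Psat1 cKO. Over all genes tested the call rate was 2.29% in either direction, 1.80% for higher and 0.490% for lower. Psat1 cKO and Ctrl libraries did not overlap for 6 of the 10, with Me1, Tkt and Taldo1 higher and Nnt, Idh2 and Me2 lower in Psat1 cKO. Over all genes tested 20.5% did not overlap, 10.0% higher and 10.5% lower. Nothing is read from these counts, since the choice of members used them.

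By compartment, all 4 mitochondrial enzymes had negative log2 fold changes (median -0.25), but only Nnt was called. Me2 was at -0.07 (SE 0.05), and the groups overlapped for the barely expressed Me3. All 4 cytosolic enzymes had positive log2 fold changes (median 0.09). G6pdx was negative in 2 of 15 alternative fits, and the groups overlapped for all cytosolic enzymes but Me1. Both non-oxidative pentose phosphate enzymes had positive log2 fold changes (median 0.24). The median over the 10 was 0.04, and that over all genes tested was -0.01, with 45.9% positive and 54.1% negative. The 9 enzymes other than G6pdx kept their sign in every alternative fit made for them.

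**Figure D1:**
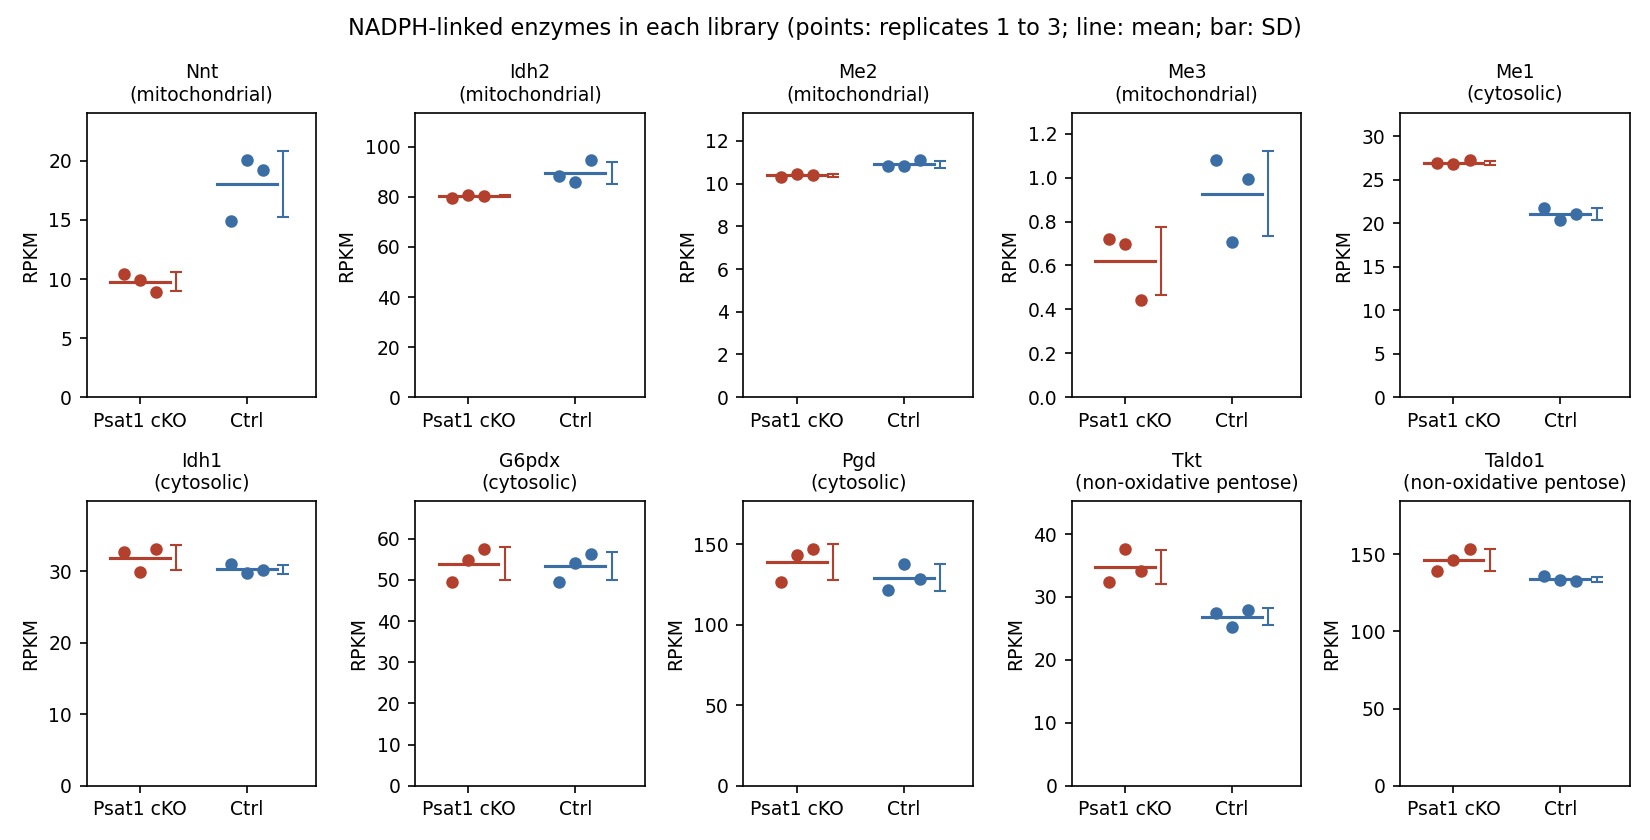
RPKM of each of the 10 enzymes in the Psat1 cKO libraries (left in each panel) and the Ctrl libraries (right), as points for replicates 1 to 3 with the group mean as a line and the SD as a bar, on axes that start at 0. Nnt shows the widest separation relative to its level, though not in RPKM, with 8.88 to 10.5 RPKM in Psat1 cKO and 14.9 to 20.0 RPKM in Ctrl. The groups overlap for Me3, Idh1, G6pdx and Pgd.

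**Figure D2:**
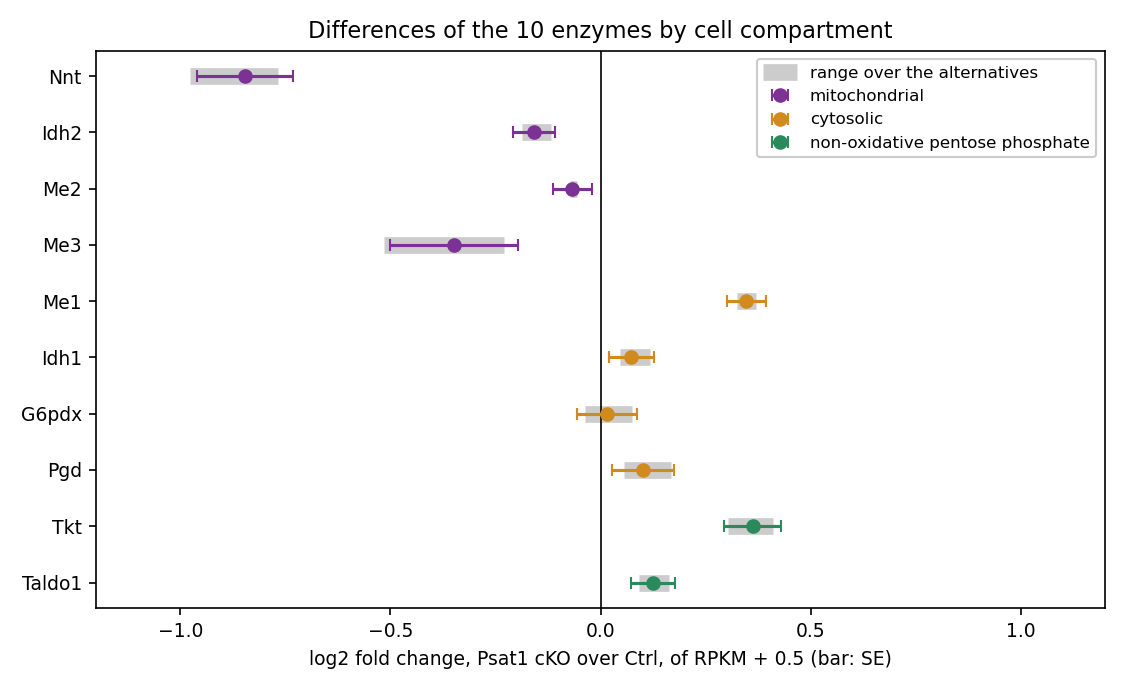
The log2 fold change of each enzyme, Psat1 cKO over Ctrl, on log2(RPKM + 0.5), with its SE as a bar and the range over the alternative fits in grey, coloured by cell compartment. The mitochondrial enzymes lie left of 0, from -0.85 for Nnt to -0.07 for Me2, and the others right of 0, from 0.01 for G6pdx to 0.36 for Tkt, with the grey range of G6pdx crossing 0.

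Nnt (Entrez 18115, chr13:119335527-119409257) had the largest log2 fold change of the 10 in either direction. It stood at 10.5, 9.93 and 8.88 RPKM in Psat1 cKO 1 to 3, against 14.9, 20.0 and 19.2 RPKM in Ctrl 1 to 3. Every Psat1 cKO library lay below every Ctrl library, and Ctrl 1 was the lowest of the controls. The means were 9.76 ± 0.806 RPKM in Psat1 cKO and 18.1 ± 2.78 RPKM in Ctrl (SD, n = 3 each), so that the Psat1 cKO mean was 54.0% of the Ctrl mean. In bulk RNA, less transcript per cell and fewer of the cells that carry it cannot be told apart. The log2 fold change was -0.85 (SE 0.11), and 1.56% of all genes tested differed by as much or more in either direction. This share gives a rank among genes and is no test, since the choice of members used these differences. The difference lay between -0.98 and -0.77 over the 15 alternatives. The call held in 12 of them and was lost without a filter on low values, without Psat1 cKO 2 (-0.86) and without Ctrl 2 (-0.77). The authors' deposited table gives Nnt a ratio of 0.544, and of the 10 genes only Me1 has a q under 0.05 there. Nnt is also the only one of the 10 named in the authors' deposited tables of enriched terms, in 4 terms of lower genes, of which the term with the smallest p has a log10 p of -2.61 and a log10 q of 0.

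The level of Nnt was lower in Psat1 cKO on both sides of the split by Xist and Y-linked expression. Among libraries with Xist the mean was 10.2 RPKM in Psat1 cKO (n = 2) and 14.9 RPKM in Ctrl (n = 1), a log2 difference of -0.53. Among libraries with Y-linked expression it was 8.88 RPKM in Psat1 cKO (n = 1) and 19.6 RPKM in Ctrl (n = 2), a log2 difference of -1.10. A fit with an interaction of genotype and split put the Y-linked difference -0.58 from the Xist one. With a single library in 2 of the 4 cells, no p is given and nothing is read from this value. Me1 and Tkt were higher in Psat1 cKO on both sides of the split, by 0.29 and 0.38 on the log2 scale for Me1 and by 0.34 and 0.36 for Tkt.

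Nnt is known to differ between C57BL/6 substrains: C57BL/6J mice carry a deletion of internal exons that leaves no functional enzyme, and C57BL/6N mice do not. The assembly named in the submitters' processing notes, mm10, represents C57BL/6J and so lacks the deleted exons. Of the transcripts that GENCODE M21 annotates on it, Nnt-202 has 17 exons and a length of 3464 bases, of which 2505 are coding. RPKM for the whole gene does not show which exons were read, and the values hold no allele. Whether the groups differ in the allele of Nnt was therefore not tested, and substrain and genotype cannot be told apart at this gene. None of the 6 libraries was near 0: the lowest value, 8.88 RPKM in Psat1 cKO 3, compares with 0.154 RPKM for 3 reads in a transcript of 1 kb at the depth of that library, a floor that covers counting error only. Over the 6 libraries the mean level of Nnt lay above that of 61.3% of the genes tested.

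None of the tested genes around Nnt was called, where 2.29% of all genes tested were, so little is read from so few genes. Within 2 Mb of either end, 25 genes are listed, of which 10 were at 0 in every library and 7 could be tested. The 7 had log2 fold changes between -0.22 and 0.15 and a median of -0.01. Of the 7, 2 were lower in Psat1 cKO without overlap, 4833420G17Rik and Nim1k, against 10.5% of all genes tested. Paip1, a translation factor partner that begins 19.1 kb away, stood at 23.0, 23.3 and 22.6 RPKM in Psat1 cKO and 24.1, 22.6 and 22.8 RPKM in Ctrl. The next gene on that side, 4833420G17Rik at 52.8 kb, was at -0.08 on the log2 scale (adjusted p = 0.512). On the other side the only tested gene, the mitochondrial ribosome gene Mrps30, had a log2 fold change of -0.03, and the cholesterol synthesis gene Hmgcs1, 281 kb from Nnt, had 0.00.

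Another segment with known differences among C57BL/6J stocks, on chromosome 19, varied between libraries in a way that did not follow the genotype. It holds Ide, the insulin-degrading enzyme (chr19:37268743-37334544), and Fgfbp3, a fibroblast growth factor binding protein (chr19:36917550-36919599). Ide stood at 15.5, 31.8 and 22.8 RPKM in Psat1 cKO and at 24.0, 16.0 and 24.8 RPKM in Ctrl. Relative to the lowest library, Ide was at 1, 2.05 and 1.47 in Psat1 cKO and at 1.55, 1.03 and 1.60 in Ctrl. Fgfbp3 was at 1.53, 3.44 and 2.59 RPKM in Psat1 cKO and at 2.48, 1.41 and 2.04 RPKM in Ctrl. Both genes were lowest in Psat1 cKO 1 and Ctrl 2 and highest in Psat1 cKO 2, and neither was called (limma adjusted p = 0.923 for Ide and 0.702 for Fgfbp3). Nnt had no such order, since it was lower in all 3 Psat1 cKO libraries. No copy number was measured, so what these levels say of the stock of each mouse was not tested.

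**Figure D3:**
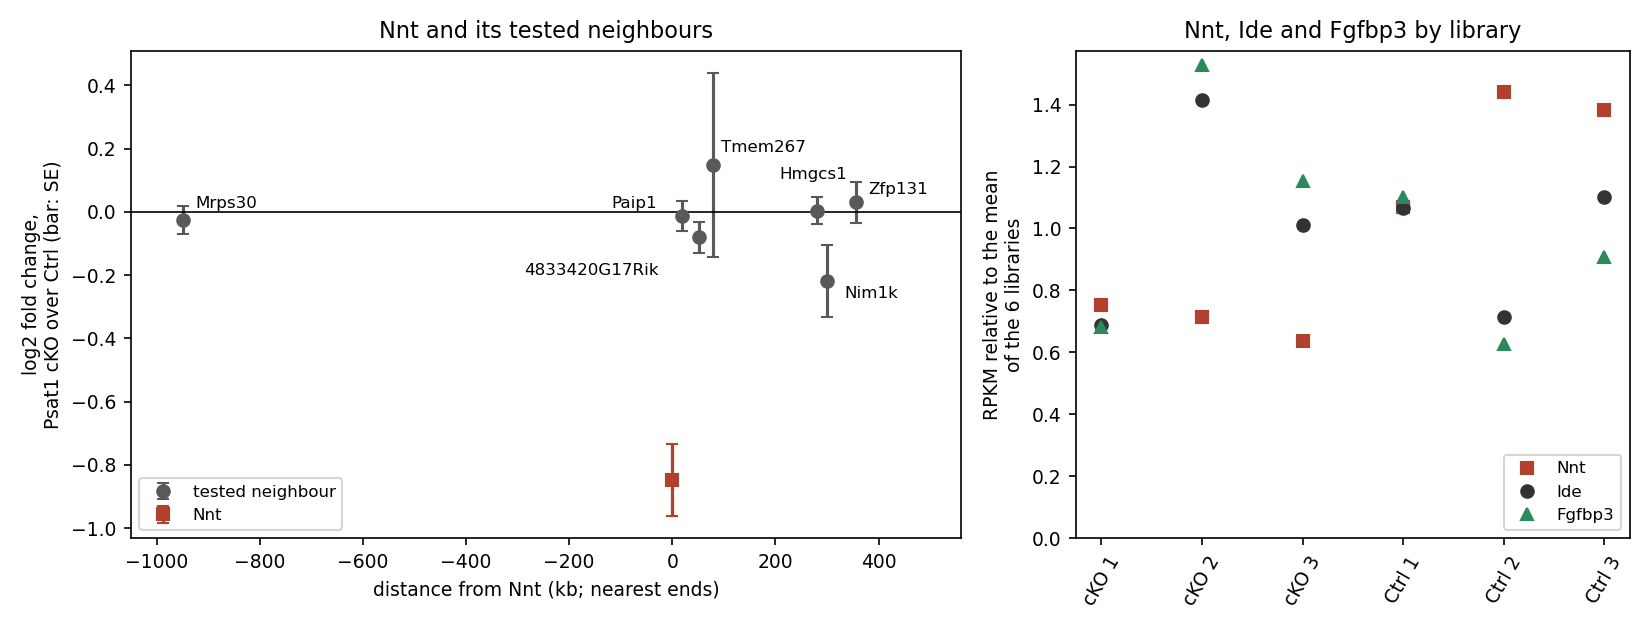
Left, the log2 fold change (Psat1 cKO over Ctrl, bar: SE) of Nnt and its 7 tested neighbours against their distance from Nnt in kb, where Nnt at -0.85 stands below all neighbours, which lie between -0.22 and 0.15. Right, RPKM of Nnt, Ide and Fgfbp3 in each library relative to the mean of the 6 libraries, where Nnt lies between 0.638 and 0.752 in Psat1 cKO and between 1.07 and 1.44 in Ctrl, and Ide and Fgfbp3 split both groups.

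Idh2, the matrix isocitrate dehydrogenase (chr7:80094845-80118608), was the most abundant of the 4 mitochondrial enzymes. It stood at 79.7, 80.6 and 80.4 RPKM in Psat1 cKO, against 88.1, 86.1 and 94.6 RPKM in Ctrl. The groups did not overlap, and the Psat1 cKO libraries lay within a narrow range. The means were 80.2 ± 0.445 RPKM in Psat1 cKO and 89.6 ± 4.41 RPKM in Ctrl (SD, n = 3 each), with a log2 fold change of -0.16 (SE 0.05) that was not called. Me2, the NAD-linked matrix malic enzyme that can also use NADP (chr18:73764954-73815438), stood at 10.3, 10.4 and 10.4 RPKM in Psat1 cKO, against 10.8, 10.8 and 11.1 RPKM in Ctrl. These groups too stood apart, by a small amount, and the log2 fold change of -0.07 (SE 0.05) was not called. Me3, the NADP-linked matrix malic enzyme (chr7:89632284-89854359), was barely expressed, at 0.719, 0.698 and 0.444 RPKM in Psat1 cKO and 1.08, 0.709 and 0.992 RPKM in Ctrl. The groups overlapped at Psat1 cKO 1 and Ctrl 2, and the log2 fold change of -0.35 (SE 0.15) was not called. For Me3 it was -0.23 without Psat1 cKO 3, and -0.52 and -0.25 with pseudocounts of 0.1 and 1 RPKM.

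Me1, the cytosolic malic enzyme (chr9:86581363-86695914), was the cytosolic enzyme with the largest log2 fold change. It stood at 26.9, 26.8 and 27.2 RPKM in Psat1 cKO, against 21.8, 20.4 and 21.1 RPKM in Ctrl. Every Psat1 cKO library lay above every Ctrl library, and the spread within each group was small against the gap. The means were 27.0 ± 0.237 RPKM in Psat1 cKO and 21.1 ± 0.689 RPKM in Ctrl (SD, n = 3 each), or 128% of the Ctrl mean. The log2 fold change was 0.35 (SE 0.05), with 0.32 to 0.37 over the alternatives, and the call was lost in 3 of 15, those without a filter, without Psat1 cKO 2 (0.35) and without Ctrl 2 (0.32). The authors' deposited table gives Me1 a ratio of 1.28.

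For the remaining cytosolic NADPH makers the groups overlapped. G6pdx, the X-linked glucose-6-phosphate dehydrogenase that commits glucose to the pathway (chrX:74409483-74428880), stood at 49.6, 54.7 and 57.6 RPKM in Psat1 cKO and 49.6, 54.2 and 56.3 RPKM in Ctrl, with overlapping groups and a log2 fold change of 0.01 (SE 0.07). Its retrogene copy G6pd2 was listed at no more than 0.0386 RPKM in any library. G6pdx was at 52.2 RPKM in Psat1 cKO and 49.6 RPKM in Ctrl among libraries with Xist, and at 57.6 RPKM in Psat1 cKO and 55.3 RPKM in Ctrl among those with Y-linked expression. Pgd, the phosphogluconate dehydrogenase that makes the second NADPH of the pathway (chr4:149149991-149166705), stood at 126, 143 and 147 RPKM in Psat1 cKO and 122, 138 and 129 RPKM in Ctrl, with overlapping groups and a log2 fold change of 0.10 (SE 0.07). Idh1, the cytosolic isocitrate dehydrogenase (chr1:65158616-65186479), stood at 32.7, 29.9 and 33.1 RPKM in Psat1 cKO and 31.0, 29.7 and 30.2 RPKM in Ctrl, with overlapping groups and a log2 fold change of 0.07 (SE 0.05).

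Both non-oxidative enzymes were higher in all 3 Psat1 cKO libraries. Tkt, the transketolase (chr14:30549131-30574724), stood at 32.4, 37.6 and 34.1 RPKM in Psat1 cKO, against 27.4, 25.3 and 27.9 RPKM in Ctrl. Its groups did not overlap, and the means were 34.7 ± 2.69 RPKM in Psat1 cKO and 26.9 ± 1.38 RPKM in Ctrl (SD, n = 3 each), or 129% of the Ctrl mean. The log2 fold change was 0.36 (SE 0.07) and lay between 0.30 and 0.41 over the alternatives, but the call of Tkt held in 6 of 15. With 1 library left out, Tkt was called only without Psat1 cKO 1 (0.41). It lost its call without Psat1 cKO 2 (0.30), Psat1 cKO 3 (0.37), Ctrl 1 (0.38), Ctrl 2 (0.32) or Ctrl 3 (0.39). Taldo1, the transaldolase (chr7:141392160-141402976), stood at 139, 147 and 154 RPKM in Psat1 cKO, against 136, 133 and 133 RPKM in Ctrl. Its groups stood apart by a narrow gap, and the log2 fold change of 0.13 (SE 0.05) was not called.

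Promoters of the members were read from the RefSeq table for GRCm38.p6, which gives 250 bases before and 50 after each start, and were searched on both strands for TGACNNNGC or TGAGNNNGC, the letters of the antioxidant response element that NRF2 binds. NRF2 is known to drive Me1, G6pdx, Pgd, Tkt and Taldo1, which is why these windows are shown. Of the 10 members, 8 have a promoter there and 7 of those hold a match, all but Tkt. Of all 27025 genes with a promoter 30.8% hold one, and of all 32851 promoters 27.8% do. The stricter TGACNNNGC is in 12.4% of promoters and in those of Me1, G6pdx and Pgd. These 3 windows are printed in the direction of the gene, with the match in capitals. They lie at chr9:86695900-86695935, chrX:74428914-74428952 and chr4:149166068-149166094, all 3 genes being on the minus strand.
Me1: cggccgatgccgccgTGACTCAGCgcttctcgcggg
G6pdx: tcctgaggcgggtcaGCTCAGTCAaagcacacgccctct
Pgd: ttgtcatttcagagcTGACATTGCact
The Me1 match begins 6 bases before the start of transcription. In G6pdx the match is on the opposite strand, so that the printed letters are its reverse complement, and begins 57 bases before the start. In Pgd it begins 4 bases after the start of the second of 2 annotated promoters. A match describes these letters only. Of the 3 genes, Me1 was called higher and G6pdx and Pgd were not called, while Tkt, called higher, has no match in its window.

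RPKM is scaled to transcript length, so levels of different genes were set side by side. The annotation that gave these lengths is not stated, so the order between genes is approximate. Over the 6 libraries the mean level was highest for Taldo1 (140.1 RPKM) and Pgd (134 RPKM), followed by Idh2 (84.9 RPKM), G6pdx (53.7 RPKM), Idh1 (31.1 RPKM), Tkt (30.8 RPKM), Me1 (24.0 RPKM), Nnt (13.9 RPKM), Me2 (10.6 RPKM) and Me3 (0.774 RPKM). In this order the ranges of the neighbours Taldo1 and Pgd overlapped, as did those of Idh1 and Tkt, of Tkt and Me1, and of Nnt and Me2. Tkt averaged more than Idh1 in Psat1 cKO (34.7 and 31.9 RPKM) and less in Ctrl (26.9 and 30.3 RPKM). Nnt lay below Me2 in Psat1 cKO 2 and Psat1 cKO 3 and above it in Psat1 cKO 1 and in all 3 Ctrl libraries.

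The RNA levels of the chosen enzymes of each compartment were set side by side by adding up each set. Such sums give no amount of enzyme and no rate of NADPH production, which were not measured. The 4 mitochondrial enzymes summed to 101, 102 and 100.1 RPKM in Psat1 cKO, against 115, 118 and 126 RPKM in Ctrl. The 4 cytosolic enzymes summed to 236, 255 and 265 RPKM in Psat1 cKO, against 224, 242 and 236 RPKM in Ctrl. The mitochondrial sums did not overlap between the groups and the cytosolic sums did. The mitochondrial share of both sums was 30.0, 28.5 and 27.4% in Psat1 cKO, against 33.9, 32.7 and 34.8% in Ctrl, or 28.7 ± 1.33% and 33.8 ± 1.04% (SD, n = 3 each). Nnt made up 10.3, 9.77 and 8.87% of the mitochondrial sum in Psat1 cKO, against 13.0, 17.0 and 15.3% in Ctrl. Most of that sum was Idh2 in both groups, 79.4 ± 0.772% in Psat1 cKO and 75.0 ± 1.76% in Ctrl.

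Within the mitochondria Nnt was lower relative to Idh2 as well. The ratio of Nnt to Idh2 was 0.131, 0.123 and 0.110 in Psat1 cKO, against 0.169, 0.233 and 0.204 in Ctrl. Across compartments the ratio of Me1 to Nnt was 2.57, 2.69 and 3.07 in Psat1 cKO, against 1.46, 1.02 and 1.09 in Ctrl, with means of 2.78 ± 0.258 and 1.19 ± 0.238 (SD, n = 3 each). The groups did not overlap in either ratio. Within the cytosol, Me1 relative to Idh1 was 0.823, 0.894 and 0.822 in Psat1 cKO, against 0.704, 0.687 and 0.698 in Ctrl. Pgd relative to G6pdx, the consecutive steps of the oxidative branch, was 2.55, 2.61 and 2.56 in Psat1 cKO, against 2.45, 2.54 and 2.29 in Ctrl. These sums and ratios rest on the contrast that the choice of members used, and so are given with no test.

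**Figure D4:**
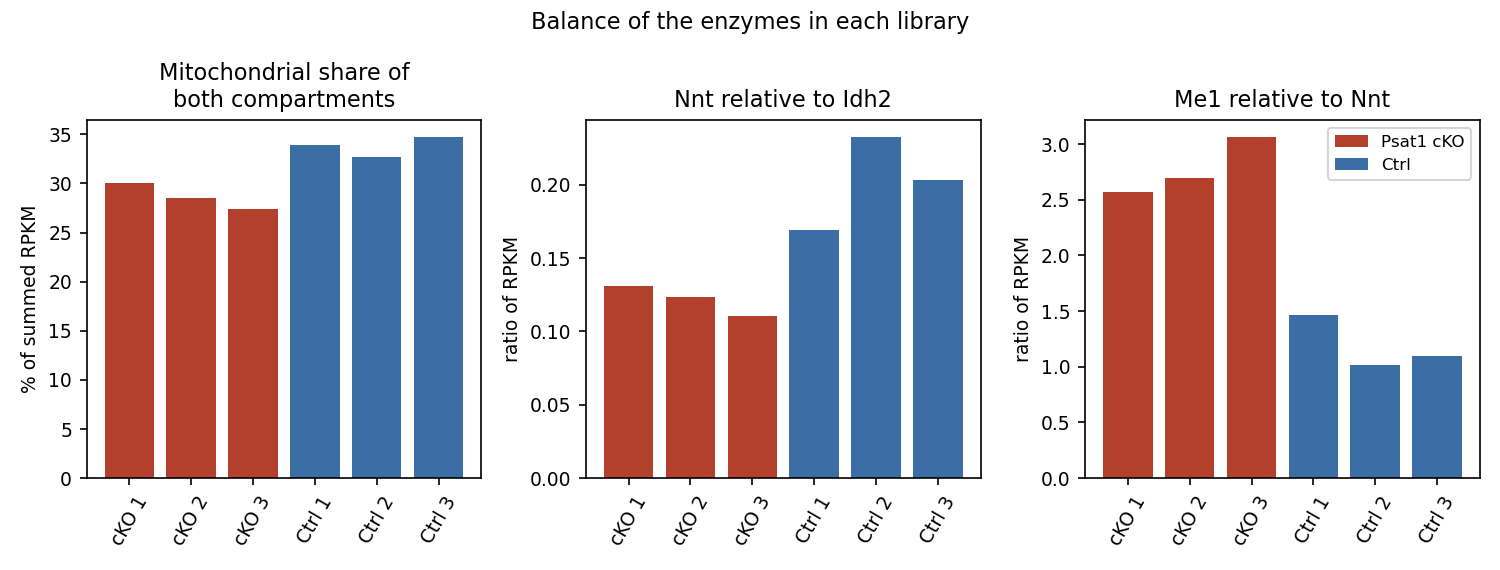
Bars for each library, Psat1 cKO 1 to 3 then Ctrl 1 to 3, from axes that start at 0: the mitochondrial share of the summed RPKM of both compartments (left), the ratio of Nnt to Idh2 (middle) and the ratio of Me1 to Nnt (right). All 3 quantities separate the groups, with a mitochondrial share of 27.4 to 30.0% in Psat1 cKO and 32.7 to 34.8% in Ctrl.

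The genes whose pattern over the 6 libraries was most like that of Nnt were found by the root mean square difference of log2(RPKM + 0.5), after each gene's own mean was subtracted, among 9962 genes. The closest were Tnfrsf1b, a tumour necrosis factor receptor, with a difference of 0.113, the exchange factor Arhgef10l with 0.164, Tox2 with 0.166, Hddc3 with 0.170 and the cholesterol synthesis enzyme Nsdhl with 0.181. Tnfrsf1b stood at 2.93, 2.90 and 2.47 RPKM in Psat1 cKO, against 4.94, 5.35 and 6.61 RPKM in Ctrl. Nnt and Tnfrsf1b shared their lowest library, Psat1 cKO 3, and had Ctrl 1 as the lowest control. The likeness is a description over 6 libraries that share the 2 groups.

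The wider network around the enzymes was described from 9 lists with 108 genes in all, of which 100 could be tested. Of these 4 were called higher in Psat1 cKO and 0 lower, against 1.80% and 0.490% of all genes tested. The lists were chosen with earlier results of these data known, so nothing is read from these counts. The 100 genes were split evenly, with 50 positive and 50 negative log2 fold changes and a median of 0.00. All 4 called genes belong to the lists of cytosolic NADPH-dependent reductases and NADPH oxidases and of NRF2 and its targets.

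Of 15 tested cytosolic reductases and NADPH oxidases, 3 were called higher and none lower, with a median of 0.08. Cyba, the p22phox subunit that NADPH oxidases need in the membrane, stood at 33.0, 32.5 and 33.7 RPKM in Psat1 cKO, against 21.2, 10.5 and 14.1 RPKM in Ctrl (log2 fold change 1.15, SE 0.21, limma adjusted p = 0.0364). Nox4, an oxidase that pairs with it, was low in both groups, at 0.761, 0.830 and 0.819 RPKM in Psat1 cKO and 0.421, 0.242 and 0.305 RPKM in Ctrl (log2 fold change 0.67, SE 0.12, limma adjusted p = 0.0362). Both were higher in all 3 Psat1 cKO libraries. Blvrb, the NADPH-dependent biliverdin and flavin reductase, stood at 17.0, 19.9 and 22.2 RPKM in Psat1 cKO, against 13.0, 14.0 and 12.6 RPKM in Ctrl (log2 fold change 0.55, SE 0.09, limma adjusted p = 0.0300). The glutathione reductase Gsr (0.04) and the cytosolic thioredoxin reductase Txnrd1 (0.16) were not called.

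Of 17 tested genes for NRF2 and its targets, 1 was called higher and none lower, with a median log2 fold change of 0.16. It was Nqo1, a quinone reductase that takes electrons from NADH or NADPH, at 14.4, 18.6 and 22.8 RPKM in Psat1 cKO, against 9.32, 10.8 and 9.67 RPKM in Ctrl (log2 fold change 0.85, SE 0.15, limma adjusted p = 0.0313). The exporter Abcc1 (0.35, adjusted p = 0.0686), the epoxide hydrolase Ephx1 (0.45, adjusted p = 0.125) and Nfe2l2, which encodes NRF2 (0.03), were not called. With the Xist and Y-linked split as a covariate, Cyba (log2 fold change 1.02, limma adjusted p = 0.0554) and Nox4 (0.63, adjusted p = 0.0751) were not called. The value of Nox4 also moved with the pseudocount, to 1.12 at 0.1 RPKM and 0.45 at 1 RPKM, both called. All of Cyba, Nox4, Blvrb and Nqo1 lost their call without Psat1 cKO 2, without Ctrl 2 and without Ctrl 3. With 1 library left out, Cyba and Nox4 were called only without Ctrl 1, Blvrb only without Psat1 cKO 1, and Nqo1 only without Psat1 cKO 1 or Psat1 cKO 3. Over these 6 fits the log2 fold change lay between 0.91 and 1.41 for Cyba, 0.60 and 0.75 for Nox4, 0.46 and 0.65 for Blvrb and 0.70 and 1.02 for Nqo1, and calls over all genes fell as well. The limma adjusted p lay between 0.00673 and 0.109 for Cyba, 0.0471 and 0.141 for Nox4, 0.0196 and 0.103 for Blvrb and 0.0167 and 0.104 for Nqo1.

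Markers of other cell types moved with the genotype beside these genes. Of 13 muscle stromal markers 7 could be tested and 4 were called higher, against 1.80% of all genes tested. The 4 were Pdgfra (1.66), Cd34 (1.35), Smoc2 (1.60) and Mfap5 (1.24). The summed level of all 13 stromal markers was 69.7 to 74.8 RPKM in Psat1 cKO, against 37.7 to 47.7 RPKM in Ctrl. The largest part of it was Gsn, at 31.9 to 44.7 RPKM in Psat1 cKO and 26.3 to 34.9 RPKM in Ctrl. For Gsn the groups overlapped, and it was not called. The fifth tested marker without overlap, Dcn, averaged 1.98 RPKM in Psat1 cKO and 0.578 RPKM in Ctrl and was not called. Of the 6 stromal markers too low to test, Lum (0.0951 RPKM in Psat1 cKO and 0.0251 RPKM in Ctrl) and Col15a1 (0.400 RPKM in Psat1 cKO and 0.116 RPKM in Ctrl) were higher without overlap, the groups overlapped for Ly6c1 and Apod, and Dpt and Pi16 were at 0 in all but 1 library each. Of 8 smooth muscle and pericyte markers, 6 were tested and 2 were called higher, against 1.80% of all genes tested. These were Tagln (1.53) and Mcam (1.01). Pdgfrb (1.25) and Cspg4 (0.58) were higher without overlap but not called, and Cnn1, too low to test, was higher without overlap as well. The groups overlapped for Rgs5 and Myh11. The sums over all 8 were 279 to 367 RPKM in Psat1 cKO and 174 to 321 RPKM in Ctrl. Most of each sum was Acta2 (log2 fold change 0.14, not called), whose groups overlapped. No tested endothelial, immune, adipocyte or Schwann marker was called by limma. The endothelial Cdh5 was higher without overlap, at 1.79, 1.94 and 2.44 RPKM in Psat1 cKO against 1.42, 0.667 and 0.887 RPKM in Ctrl. The groups overlapped for the other listed endothelial markers. Sums over all listed markers, tested or not, were 3.44 to 11.1 RPKM in Psat1 cKO and 2.38 to 4.74 RPKM in Ctrl for endothelial markers, and 12.0 to 17.6 RPKM in Psat1 cKO and 16.7 to 22.9 RPKM in Ctrl for immune markers. For adipocyte markers, of which Plin1 was at 0 in every library, they were 1.43 to 6.78 RPKM in Psat1 cKO and 1.81 to 2.82 RPKM in Ctrl, and for Schwann markers 1.13 to 2.82 RPKM in Psat1 cKO and 0.975 to 1.58 RPKM in Ctrl. Most of the immune sum was Laptm5, at 10.9, 14.3 and 15.40 RPKM in Psat1 cKO against 15.43, 18.6 and 21.5 RPKM in Ctrl. Laptm5 was thus lower without overlap. The part of other cells in the levels of Nnt, Me1, Tkt, Cyba, Nox4, Blvrb and Nqo1 was not tested.

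The remaining lists held no called gene. In the rest of the pentose phosphate pathway, 7 genes were tested, with a median log2 fold change of 0.04, and the lactonase Pgls (-0.09), the ribose-5-phosphate isomerase Rpia (-0.15) and the ribokinase Rbks (0.30) had the smallest p. The list of other NADPH makers in folate and glutamate metabolism had 5 tested genes (median -0.07). Which cofactor each of these enzymes used was not measured. Aldh1l2, the mitochondrial formyltetrahydrofolate dehydrogenase, stood at 5.36, 5.45 and 4.81 RPKM in Psat1 cKO, against 6.59, 6.23 and 6.59 RPKM in Ctrl. Its groups did not overlap, and its log2 fold change of -0.29 (SE 0.07) had an adjusted p of 0.0779 by limma. The mitochondrial folate dehydrogenase Mthfd2 (-0.11, adjusted p = 0.502) and glutamate dehydrogenase Glud1 (0.07, adjusted p = 0.545) were not called.

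Among 11 tested genes of NAD and NADP supply (median 0.00), the cytosolic NAD kinase Nadk, which makes NADP, stood at 50.9, 53.9 and 57.4 RPKM in Psat1 cKO, against 47.2, 46.3 and 47.2 RPKM in Ctrl. Its groups did not overlap, with a log2 fold change of 0.20 (limma adjusted p = 0.130), while its mitochondrial counterpart Nadk2 had 0.00. The NAD synthetase Nadsyn1 (-0.15) and the nicotinamide riboside kinase Nmrk2 (-0.25) were not called. Of 17 partners and carriers of isocitrate and malate, 14 had negative values (median -0.05) and 0 were called by limma. The aspartate-glutamate carrier Slc25a13 stood at 0.32 on the log2 scale (limma adjusted p = 0.187) and pyruvate carboxylase Pcx at -0.31 (adjusted p = 0.357).

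The lists of mitochondrial thiol and peroxide defence, of lipid synthesis and of proline synthesis held no gene called by limma. The 9 genes of mitochondrial thiol and peroxide defence had a median log2 fold change of 0.01, with the matrix thioredoxin reductase Txnrd2 at -0.18 (limma adjusted p = 0.44) and the glutathione peroxidases Gpx1 and Gpx4 at 0.08 and 0.09. The 14 lipid synthesis genes had a median of -0.05, with the desaturases Scd2 and Scd1 at -0.14 and 0.15 and the sterol reductase Dhcr7 at -0.17. The 5 tested genes of proline synthesis had a median of -0.02, with Aldh18a1 at -0.09, Pycr1 at -0.23 and Pycrl at 0.04. Of the serine pathway, Psat1 was lower, while Phgdh (-0.04) and Psph (-0.14) were not called.

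**Figure D5:**
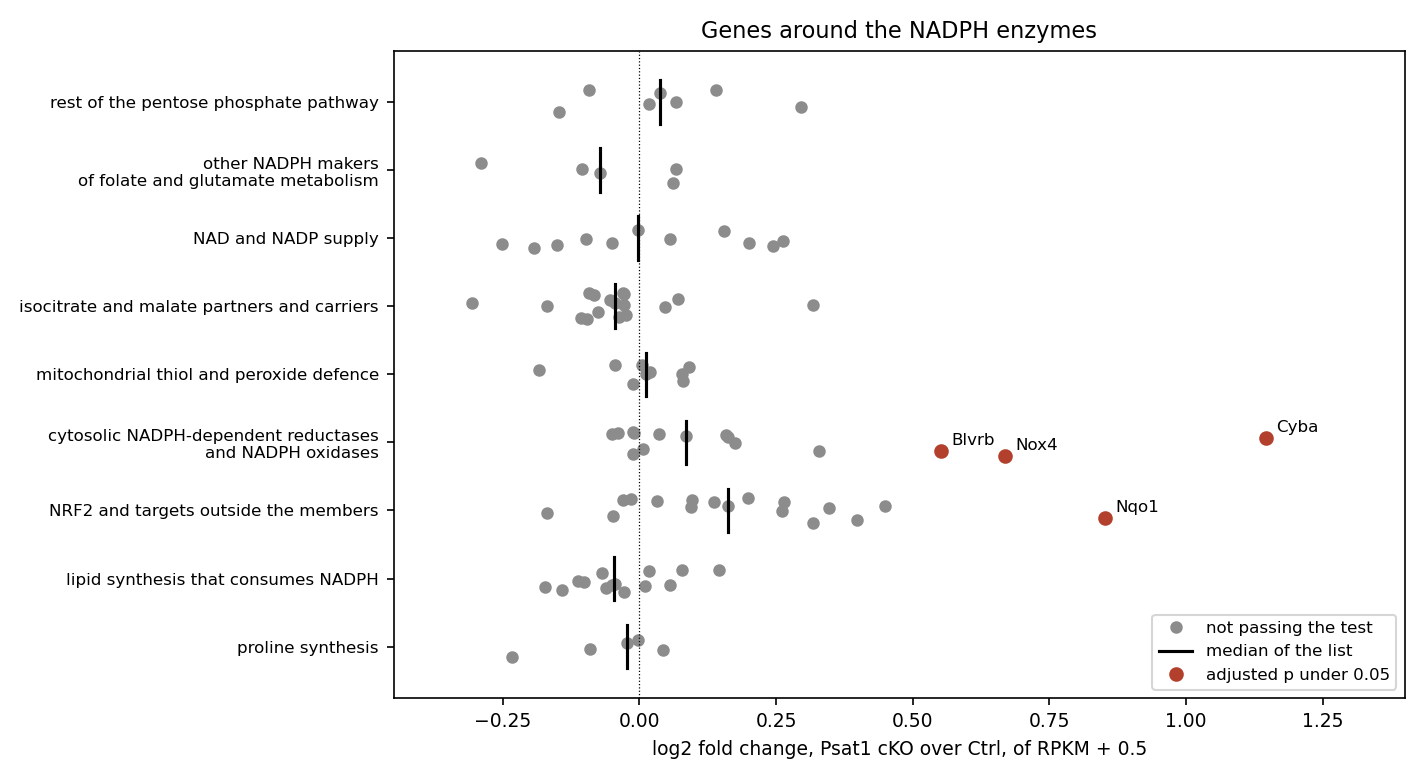
The log2 fold change (Psat1 cKO over Ctrl) of each tested gene of the 9 lists around the NADPH enzymes, 1 list per row, with the list's median as a vertical line and called genes in red. Most points lie near 0 and the 4 called genes, Cyba (1.15), Nqo1 (0.85), Nox4 (0.67) and Blvrb (0.55), lie to the right.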

How the data were processed

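Per the labels' protocols, RNA was taken up in Trizol and poly(A) libraries were built with NEBNext Ultra II. TopHat2 2.1.1, Trim Galore 0.6.6, the genome build mm10 and Partek appear in the submitters' processing notes, without their roles. How reads were counted, and on which annotation, is not given in the sources used here. For 25220 genes the authors deposited RPKM values, which are the measurement used. They also deposited their own comparison, with group means of log2(RPKM + 0.001), a ratio, a signed fold change score, p-values and q-values, and tables of enriched terms with log10 p and log10 q, per the file headers. Their log2 means matched those recomputed within 5.45e-05.

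Genes that averaged 0.5 RPKM or more in the 6 libraries were fitted with limma 3.58.1 in R 4.3.3 (lmFit, eBayes with a variance trend) on log2(RPKM + 0.5), with genotype as the term and adjustment over all 12251 genes. Fold changes on that scale understate low genes. Of these 220 were higher and 60 lower in Psat1 cKO at an adjusted p under 0.05, and 926 and 836 at an unadjusted one. Groups came from sample titles. The members, gene lists, markers and the rule for named genes (members, Psat1, up to 3 genes per list by p, the nearest tested neighbours of Nnt and 5 genes most like it) were chosen with earlier results of these data known; Gsr, Txnrd1, Nfe2l2, Nadk2, Hmgcs1 and the markers were named after their values were seen. Depth came from the steps between low values of 2413 single-exon genes of GENCODE M21, where 41.2 to 47.6% of values were whole reads within 1%, against a median of 8.0 to 9.4% at other depths. Too few were whole for a count test. A gene that the rule takes is not reported here. Near-identical and overlapping genes may share reads. The limma step was tested on simulated data. Tables and plots used Python 3.11.15, pandas 2.3.3, numpy 2.4.6 and matplotlib 3.10.9. Alternatives were other pseudocounts, no filter or one at 2 RPKM, TMM and quantile scaling, a replicate block, the Xist and Y-linked split as a covariate, no variance trend and each library left out in turn.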

Additional observations from a re-analysis of the deposited data

How the results depend on the processing

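No called gene among the enzymes and the related genes named changed direction in any alternative. Of all genes tested, 220 were called higher and 60 lower. Without a filter on low values (20767 genes, prior degrees of freedom 1.35 against 3.72) these were 1 and 3, with 0 members higher, 0 members lower and 0 related genes higher. Leaving out 1 library gave 49 to 173 genes higher and 12 to 55 lower, with the fewest without Psat1 cKO 2 and Ctrl 2, 0 to 2 members higher, 0 to 1 members lower and 0 to 3 related genes higher. Members higher numbered 1 with the replicate block, 1 with the Xist and Y-linked split as a covariate and 1 with no variance trend. Related genes higher numbered 2 with that covariate and 1 with no variance trend. The cause of these differences was not tested. The replicate block gave 121 genes lower, no call for Nox4 (0.67, adjusted p = 0.0713) and a call for Abcc1 (0.35, adjusted p = 0.0376), both by limma. Same-numbered libraries correlated at 0.20, -0.03 and 0.17 in their deviations from the group means. Replicates 1 and 3 correlated best with their own number, and replicate 2 did not. Replicates 1 and 3 were also on the same side of the Xist and Y-linked split in both groups, and replicate 2 was not. Whether same-numbered libraries form pairs was not tested. At a filter of 2 RPKM, Me3, Nox4, Nim1k and Rbks were not tested. Depth limits the low genes most: 3 reads in 1 kb were worth 0.154 RPKM in the shallowest library, Psat1 cKO 3, which also had the lowest Me3.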
